A study of Mus musculus with 12 samples.

Results

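The Klk1 cluster is a run of mouse genes on chromosome 7 that encode glandular, or tissue, kallikreins. It is described here in the colon of 4 genotypes through the rows (probe sets) of the array table whose platform annotation carries Klk1, Klk1b1, Klk1b3, Klk1b5, Klk1b11, Klk1b21, Klk1b22, Klk1b24, Klk1b26 or Klk1b27. Of these 10 genes, 9 had a row, which makes 9 rows of 41345 in the table, and Klk1b3 was not analysed here. A single symbol stood beside 8 of the 9 rows. The row of Klk1b26 was shared with Egfbp2, a name that RefSeq lists as a synonym of Klk1b26. The family was selected on measured values, since it was noticed through the lower signal of Klk1b22 in the colon of mice without interleukin-10 than in wild type colon. Values of the members in that contrast are therefore given as a description, with no test. The contrasts that share arrays with it are not independent of the choice.

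Tissue kallikreins are secreted serine proteases of the trypsin fold. Klk1 is the member that cuts kininogen to release kinins, peptides that act through the bradykinin receptors B1 and B2 on blood vessels, smooth muscle, nerves and epithelial ion transport. In rodents the ancestral gene was duplicated many times. The Klk1b copies are best known from the submandibular gland, where they include proteases found in complex with nerve growth factor and epidermal growth factor. Because the copies are so alike, a probe designed for one can bind the transcript of another. The probe letters were not used here, so the share of a row's signal that comes from a paralogue was not tested.

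Whole-transcript arrays from Affymetrix were used on total RNA of mouse colon, with 3 arrays for each genotype and 12 altogether. Wild type mice (WT) are labelled IL10+/+ STING+/+, mice without STING (SKO) IL10+/+ STING-/-, mice without interleukin-10 (IL10KO) IL10-/- STING+/+, and the double knockout (DKO) IL10-/- STING-/-. Interleukin-10 dampens immune responses in the gut, and its loss is a standard model of colitis. STING is the adaptor that links DNA in the cytosol to interferon and inflammatory genes. No group received a treatment according to the labels, and the sources used here do not give strain, age, the stretch of colon or whether each array is a separate animal. The p-values below therefore measure the spread between these samples, which may be technical. Signals are on a log2 scale, so a difference of 1 is a 2-fold change.

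The targeted gene was checked first. Sting1 read 7.51 and 6.40 in WT replicates 1 and 2, 6.87 to 8.09 in IL10KO, 4.28 to 4.40 in SKO and 4.13 to 4.34 in DKO. The library labelled WT replicate 3 read 4.56, close to the knockout range and against its label. The Il10 row checked nothing, with means of 3.68 in WT, 3.72 in SKO, 4.98 in IL10KO and 4.47 in DKO. Pancreatic enzyme genes (13 measured of 17 listed) averaged 8.92 in WT replicate 1 and 11.56 in WT replicate 2, against 5.22 to 6.27 in the other 10 arrays. Values without these libraries stand beside the results that they move. Where WT replicates 1 and 2 are left out together, WT is the library labelled WT replicate 3 alone, which is then assumed to vary like the other groups. Colon epithelial markers (Epcam, Vil1, Cdx1, Cdx2, Krt8 and Krt19) averaged between 9.99 and 10.39 on every array.

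Klk1, Klk1b5 and Klk1b22 carried the differences between genotypes, and the sequences just before their starts are shown because these members moved together. They are the 250 bases before the annotated start, from RefSeq on GRCm38.p6, on the plus strand. Klk1 lies at chr7:44225110-44225359, Klk1b5 at chr7:44216224-44216473 and Klk1b22 at chr7:44112423-44112672. Klk1b9, at chr7:43975811-43976060, is shown beside them as a paralogue whose row was dim on every array, and it matches Klk1b22 at 87.2% of aligned positions. Capitals mark the longest run of letters that the windows of Klk1, Klk1b5 and Klk1b22 have in common.
Klk1: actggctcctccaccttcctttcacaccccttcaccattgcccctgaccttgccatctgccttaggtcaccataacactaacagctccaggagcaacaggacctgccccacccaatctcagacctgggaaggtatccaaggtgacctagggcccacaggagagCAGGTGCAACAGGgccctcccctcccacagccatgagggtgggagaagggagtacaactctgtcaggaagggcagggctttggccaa
Klk1b5: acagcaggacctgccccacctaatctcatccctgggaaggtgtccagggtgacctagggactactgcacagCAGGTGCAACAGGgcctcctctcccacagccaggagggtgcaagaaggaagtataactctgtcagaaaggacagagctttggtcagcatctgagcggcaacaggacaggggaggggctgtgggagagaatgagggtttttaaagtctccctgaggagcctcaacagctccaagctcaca
Klk1b22: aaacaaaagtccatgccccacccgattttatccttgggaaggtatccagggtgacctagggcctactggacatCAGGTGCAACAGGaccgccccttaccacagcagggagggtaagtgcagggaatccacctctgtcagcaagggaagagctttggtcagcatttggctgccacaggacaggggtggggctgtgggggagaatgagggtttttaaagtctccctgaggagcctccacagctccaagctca
Klk1b9: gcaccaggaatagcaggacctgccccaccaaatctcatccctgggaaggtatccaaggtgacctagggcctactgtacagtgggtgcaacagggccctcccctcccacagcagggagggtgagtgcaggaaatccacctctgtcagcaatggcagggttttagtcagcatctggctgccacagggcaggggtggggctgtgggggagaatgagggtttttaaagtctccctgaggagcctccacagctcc

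The shared run is 13 bases long, caggtgcaacagg. It was searched for because these 3 windows hold it, so its presence in them is by construction. It was in no other of the 14 windows of the family (10 of 10 members and 4 further paralogues matched the RefSeq table) and in 3 of all 32851 promoter windows (0.00913%). How rare the longest shared run of any other 3 windows would be was not examined, so this share has no comparison. Among the other 11 windows, the closest stretch differed at 2 positions in 5 windows, at 3 in 1 window and at 4 in 5 windows. The run begins 87 bases before the start of Klk1, 179 before that of Klk1b5 and 177 before that of Klk1b22. These distances depend on where each start is annotated.

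The windows of the family are alike where they align, but not all pairs align over the full 250 bases. The aligned stretch was 158 columns for Klk1 with Klk1b5 and 160 for Klk1 with Klk1b22. It was 249 for Klk1b5 with Klk1b22. Identity over the 91 pairs ranged from 72.6% to 97.7%, with a median of 81.9%. Klk1 and Klk1b5 matched at 84.8% of aligned positions, Klk1b5 and Klk1b22 at 83.5%, and Klk1 and Klk1b22 at 76.9%. None of these 3 pairs was the most alike. A search of both strands found TTTAAA, a variant of the TATA box that reads the same on both strands, in 12 of 14 windows, all but those of Klk1 and Klk1b21, against 12.1% of all windows. TATAAA, the usual TATA box, was in 0 of 14 (12.4% of all windows). AGAACA, the core letters of sites bound by androgen and glucocorticoid receptors, was in those of Klk1b3 and Klk1b24 (16.1% of all windows). In alignment, the window of Klk1 ends before the TTTAAA of Klk1b5, and that of Klk1b21 before the TTTAAA of Klk1b24. Letters past those ends were not searched, so the lack of TTTAAA there depends on the annotated start. No match of one motif overlapped that of another in these windows, and a match or its lack is a description of this stretch only.

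The rows of Klk1, Klk1b5 and Klk1b22 are given array by array. Klk1, the kininogenase, read 12.38, 12.79 and 12.75 in WT, 12.78, 12.83 and 12.87 in SKO, 11.98, 12.02 and 12.05 in IL10KO, and 12.66, 12.65 and 12.74 in DKO. The 3 IL10KO arrays lay below the other 9, and no array of IL10KO overlapped one of another genotype. Only 7 to 94 rows of an array were brighter, and the brightest row of an array read 13.07 to 13.29, so Klk1 lay near the top of the scale.

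Klk1b5 is a glandular kallikrein copy that neighbours Klk1. It read 9.87, 10.68 and 10.43 in WT, 10.33, 10.30 and 10.43 in SKO, 8.64, 9.43 and 8.98 in IL10KO, and 10.32, 10.44 and 10.38 in DKO. Again the 3 IL10KO arrays were the lowest of the 12. The arrays of WT, SKO and DKO ran through each other.

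Klk1b22 encodes a protease also named epidermal growth factor-binding protein type A. It read 6.29, 7.15 and 9.24 in WT, 9.07, 8.61 and 8.92 in SKO, 3.68, 4.69 and 4.25 in IL10KO, and 8.14, 7.93 and 7.60 in DKO. The order of genotype means was SKO, DKO, WT and IL10KO, and only IL10KO stood clear of all others. WT spanned nearly 3 log2 units, more than any other genotype, and its highest array is the library labelled WT replicate 3. In IL10KO, replicate 1 lay under the lower quartile of its array, which was between 3.45 and 3.72 over the 12 arrays, and all 3 IL10KO arrays lay below the median of their array. With no detection calls, folds against IL10KO are ratios of signals for this row, and whether its IL10KO signal exceeds background is not known.

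**Figure D1:**
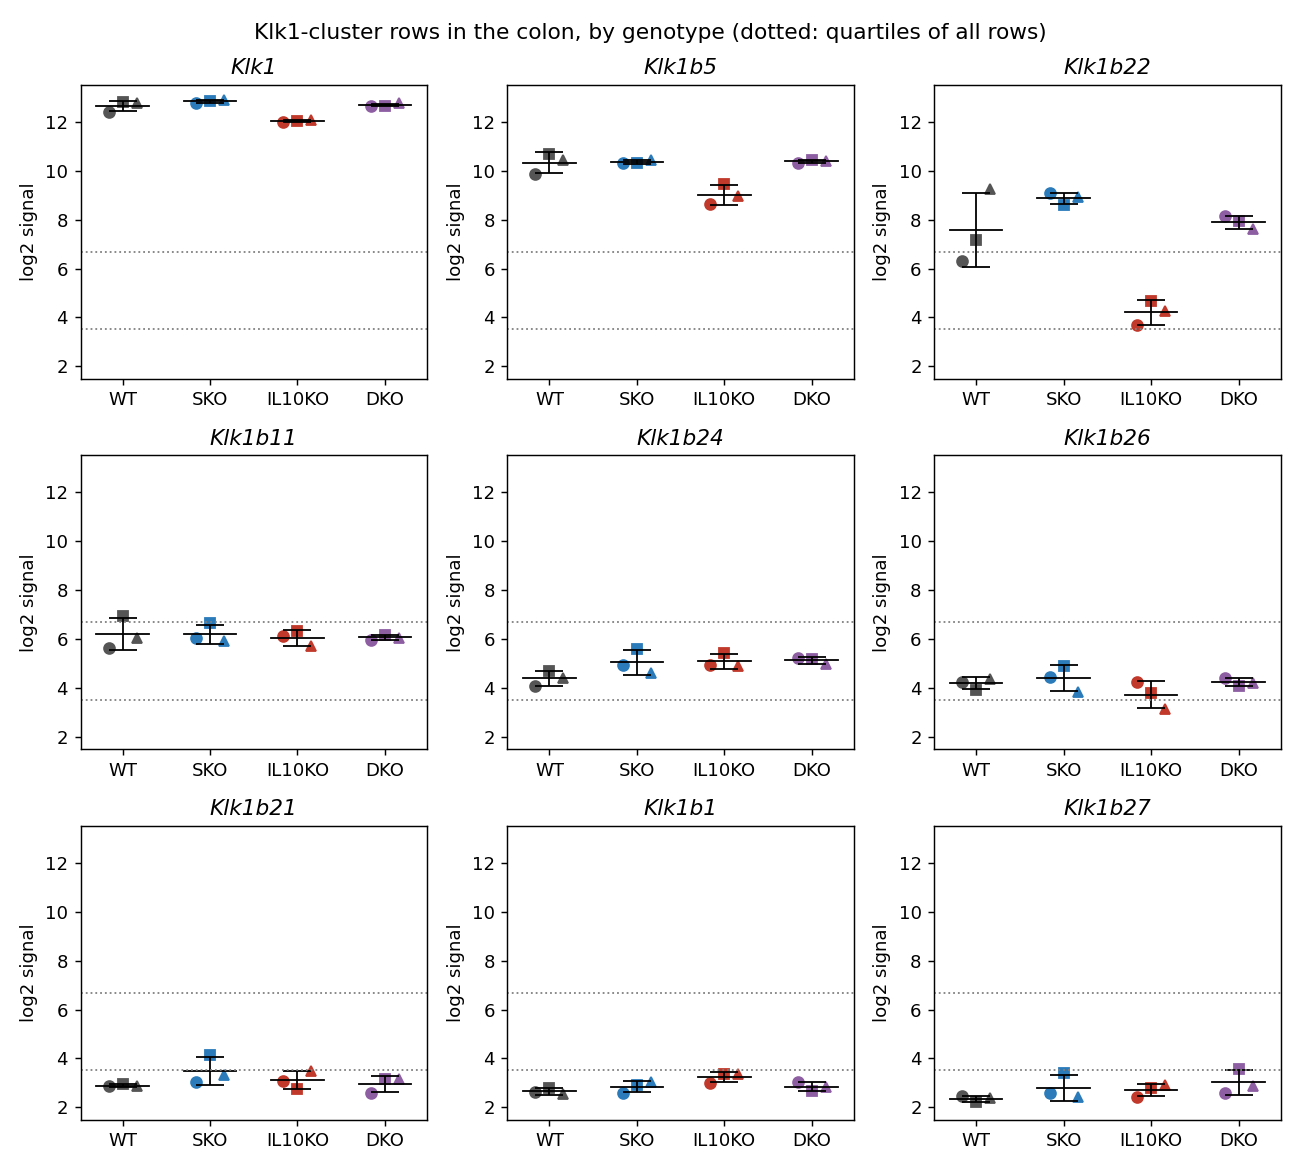
Log2 signal of the 9 member rows on each of the 12 arrays, grouped by genotype on the horizontal axis. Circles, squares and triangles are replicates 1, 2 and 3, bars are the mean ± SD of 3 arrays, and dotted lines are the median over arrays of the lower and the upper quartile of all rows. The IL10KO arrays of Klk1, Klk1b5 and Klk1b22 lie below those of the other genotypes, while the other members show no such step.

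The other 6 rows were dim or in the middle of the range. Klk1b11 read between 5.64 and 6.92, with both ends in WT, and lay above the median of its array on 12 of 12 arrays. Klk1b24 read between 4.08 and 5.61, and Klk1b26 with Egfbp2 between 3.16 and 4.91. Klk1b1 lay below the lower quartile on 12 of 12 arrays, and Klk1b21 and Klk1b27 on 11 of 12 each. The table carries no detection calls, so none of these rows can be called absent. Probe sets differ in how strongly they bind, and levels of different members are therefore not ranked against each other.

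The loss of interleukin-10 where STING is present (IL10KO against WT) is the contrast that led to the family. The mean of Klk1b22 was 7.56 ± 1.51 (SD, n = 3) for the WT arrays and 4.21 ± 0.50 for the IL10KO arrays. That is 10.2-fold lower, or -3.35 ± 0.56 (SE). Klk1b5 was lower by 2.48-fold (-1.31 ± 0.22) and Klk1 by 1.54-fold (-0.62 ± 0.13). All 3 had arrays that did not overlap between these genotypes, as had Klk1b1 and Klk1b24 in the other direction. The share of all rows without such overlap was not counted, in this or the other contrasts. The size for Klk1b22 rests on the WT arrays. It was -2.52 without the library labelled WT replicate 3, and -5.03 without WT replicates 1 and 2, the arrays with pancreatic signal. Without those 2 arrays Klk1b5 gave -1.42 and Klk1 -0.73. The other 6 rows ran from -0.46 for Klk1b26 to 0.69 for Klk1b24, which was higher in IL10KO, as was Klk1b1 by 0.57. The median over the 9 rows was -0.15, against 0.06 over all rows.

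The effect of losing STING where interleukin-10 is absent was read from DKO against IL10KO. The rows of Klk1, Klk1b5 and Klk1b22 were higher in DKO. Klk1b22 rose 12.9-fold (3.69 ± 0.56, 95% interval 2.45 to 4.92, limma adjusted p = 0.0105). Klk1b5 rose 2.57-fold (1.36 ± 0.22, limma adjusted p = 0.0137) and Klk1 rose 1.59-fold (0.67 ± 0.13, limma adjusted p = 0.0296). For each, the 3 DKO arrays all lay above the 3 IL10KO arrays. These differences share the IL10KO arrays with the contrast that chose the family, so low values in those arrays enter both.

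Of the 9 rows, 3 were higher and none lower in DKO, where 2% of all rows were called in either direction (433 higher and 395 lower). The other 6 did not pass, with differences from -0.39 for Klk1b1, whose adjusted p of 0.233 was the smallest of them (limma), to 0.51 for Klk1b26. The median over the 9 rows was 0.31, against -0.06 over all rows. The calls rest on few arrays. Klk1b22 missed the threshold without DKO replicate 1 (limma adjusted p = 0.052). Klk1b5 missed it without DKO replicate 1 (0.0544) or 2 (0.0676), and in a fit of only these genotypes (0.0677). Klk1 missed it without SKO replicate 1, IL10KO replicate 1 or 3 or any 1 DKO array (up to 0.0999), after quantile normalization (0.0533), and in the fit of only these genotypes (0.119). The size of each difference stayed close, between 3.42 and 3.93 for Klk1b22, 1.17 and 1.57 for Klk1b5, and 0.61 and 0.75 for Klk1 over 19 alternatives.

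The effect of losing interleukin-10 where STING is absent, DKO against SKO, shares no array with IL10KO against WT. Here 0 of 9 rows were called by limma, and 0 had an unadjusted p under 0.05. Over all rows 0.0242% were called (1711 had an unadjusted p under 0.05). Klk1b22 read 8.87 ± 0.23 (SD, n = 3) in SKO and 7.89 ± 0.27 in DKO, a difference of -0.98 with a 95% interval of -2.21 to 0.26. Its arrays did not overlap. The interval is that of the fit over all 12 arrays, whose spread includes that of WT. The SE was 0.56 there. It was 0.29 without the library labelled WT replicate 3 (limma adjusted p = 0.912). A fit of only SKO and DKO gave 0.19 (limma adjusted p = 0.405). The interval is thus narrower in both of these fits, where the difference of -0.98 was several times its SE. Neither fit passed the adjusted threshold. The count of 0 rows at an unadjusted p under 0.05 is that of the 12-array fit, and an unchanged Klk1b22 is not shown. Klk1b5 differed by 0.02, with an interval of -0.46 to 0.51. Klk1 differed by -0.14 (-0.43 to 0.14), with arrays that did not overlap.

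**Figure D2:**
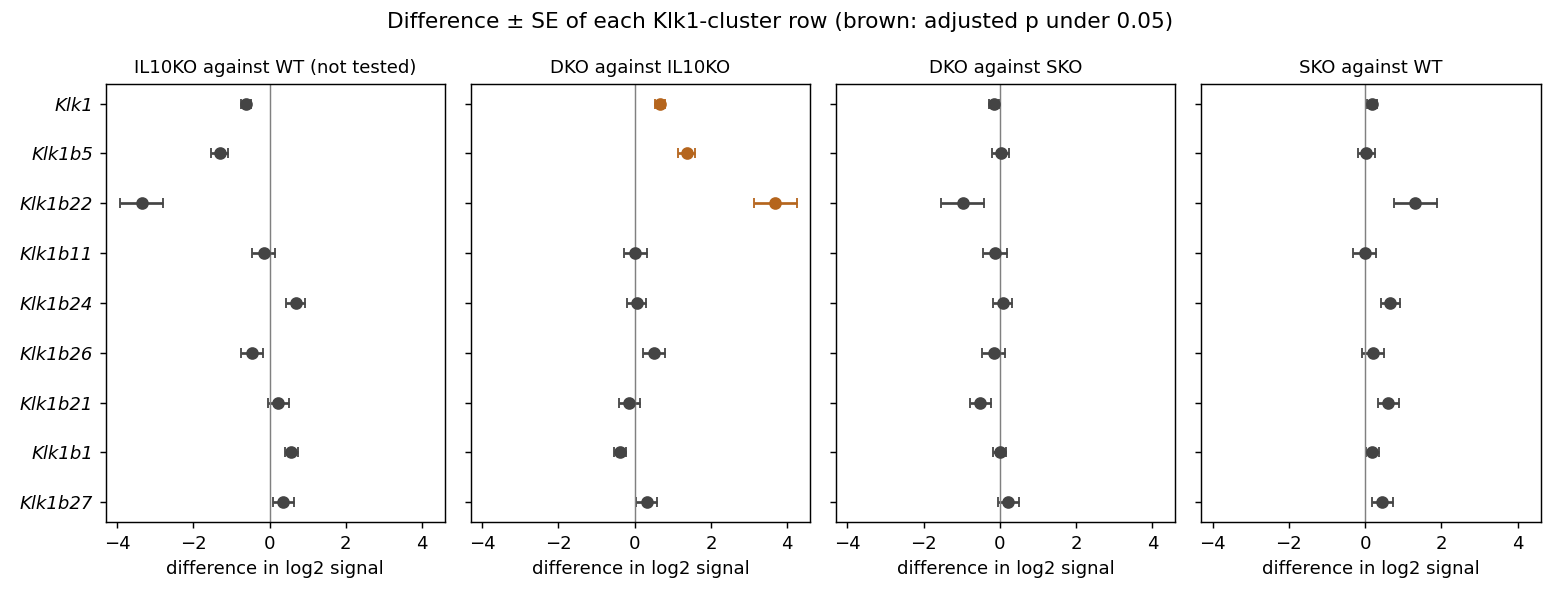
Difference in log2 signal (horizontal axis) of the 9 member rows in 4 contrasts, with error bars of ± SE from the fit over 12 arrays. Brown points passed limma's adjusted threshold, and IL10KO against WT carries no test. Klk1b22, Klk1b5 and Klk1 lie to the left in IL10KO against WT and to the right in DKO against IL10KO, and the other 2 contrasts have no brown point.

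With interleukin-10 present, the loss of STING (SKO against WT) gave 0 of 9 calls by limma, as it did over all rows (0%). At an unadjusted p under 0.05 there were 3 members (Klk1b21, Klk1b22 and Klk1b24) and 836 of all rows, or 2.02%. Klk1b22 was 1.31 higher in SKO, with a 95% interval of 0.08 to 2.54 and an adjusted p of 1 (limma), and the arrays overlapped. The library labelled WT replicate 3 decided this value. Without it the difference was 2.15 (limma adjusted p = 0.0238), and without WT replicates 1 and 2 it was -0.37. Klk1 differed by 0.19 and Klk1b5 by 0.03. Without WT replicate 1 these were 0.06 and -0.20, and without WT replicates 1 and 2 they were 0.08 and -0.08, with an adjusted p of 1 each (limma).

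The double knockout did not differ detectably from WT in any member (0 of 9 called by limma, against 0.0242% of all rows). An unadjusted p under 0.05 was reached by 2 members, Klk1b24 and Klk1b27, and by 2.85% of all rows. Klk1b22 differed by 0.33 (95% interval -0.90 to 1.57), Klk1b5 by 0.05 (-0.44 to 0.54) and Klk1 by 0.04 (-0.24 to 0.33). The value for Klk1b22 was 1.17 without the library labelled WT replicate 3 and -1.34 without WT replicates 1 and 2. Without WT replicate 1, Klk1b5 gave -0.18 and Klk1 -0.08.

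Whether the effect of losing interleukin-10 differs with STING was tested as the difference of the differences, (DKO minus SKO) minus (IL10KO minus WT), which contains the contrast that chose the family. None of the 9 rows passed by limma, against 0.0726% of all rows. Klk1b22 gave 2.38 ± 0.80 (adjusted p = 0.311, limma), Klk1b5 1.34 ± 0.32 (0.18, limma) and Klk1 0.48 ± 0.18 (0.345, limma). At an unadjusted p under 0.05 there were 4 members (Klk1, Klk1b1, Klk1b5 and Klk1b22) and 12.6% of all rows. The effects in the presence and absence of STING are thus not shown to differ for these genes. For Klk1b22 the value was 1.54 without the library labelled WT replicate 3 and 4.05 without WT replicates 1 and 2, where that library is the only WT array and the value rests on it.

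Klk1, Klk1b5 and Klk1b22 followed each other across arrays. Pearson's r over the 12 arrays was 0.94 for Klk1 with Klk1b5, 0.95 for Klk1 with Klk1b22 and 0.90 for Klk1b5 with Klk1b22. After the genotype means were taken out, r was 0.72, 0.56 and 0.53. These are descriptions, since the arrays share genotypes and the rows may share transcripts. The genes outside the family whose pattern was most like Klk1 over the 12 arrays, among 17236 compared, were Epha7 (r = 0.968), an ephrin receptor, Scin (0.967), an actin-severing protein, Fcgbp (0.961), a mucus protein of goblet cells, Gnao1 (0.955), a G protein subunit, and Uhrf2 (0.955), a ubiquitin ligase. For Klk1b22 they were Myl9 (0.981) and Flnc (0.980), which are a myosin light chain and a filamin of muscle, Fcgbp (0.968), Grb7 (0.968), a signalling adaptor, and Fer1l6 (0.964).

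The other kallikreins of the locus are given beside the members. The further Klk1b paralogues with a row (Klk1b8, Klk1b9, Klk1b16 and the pseudogene Klk1b7-ps, 4 of 5 listed) gave 0 calls by limma in any contrast, and none had an unadjusted p under 0.05. Klk1b9 read 3.14 ± 0.27 (SD, n = 3) in WT, 3.26 ± 0.29 in SKO, 3.52 ± 0.47 in IL10KO and 3.23 ± 0.20 in DKO. Klk4 to Klk15 are the separate kallikreins of the same locus, several of which act in skin and other stratified epithelium. In IL10KO against WT, where 2.97% of all rows were called, 2 of these 12 were higher and 1 lower. Klk14 differed by 1.15 (limma adjusted p = 0.0439), Klk7, a skin-shedding protease, by 1.06 (0.0498) and Klk15 by -1.20 (0.0354).

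These 3 calls were not stable. Klk7 kept its call in 2 of 12 single omissions, Klk14 in 3 and Klk15 in 7, and all were lost without WT replicate 1 and without WT replicate 2. In DKO against IL10KO, 0 of the 12 passed by limma, and 9 had an unadjusted p under 0.05, as had 19.6% of all rows. Without SKO replicate 2, IL10KO replicate 1 or DKO replicate 3, counts of 2, 3 and 1 were lower in DKO. Klk13 gave -1.73 (limma adjusted p = 0.0605). The median over the 12 was 0.71 in IL10KO against WT and -0.75 in DKO against IL10KO. These are opposite in sign to the differences of Klk1, Klk1b5 and Klk1b22. Klk15 was lower in IL10KO as they were, but stayed low in DKO (mean 4.50, against 4.34 in IL10KO and 5.47 in SKO). The members Klk1b1 and Klk1b24 were higher in IL10KO than in WT. The difference between Klk4 to Klk15 and the members was not tested. Markers of stratified squamous epithelium (7 measured of 8) averaged 5.24 to 7.37 in IL10KO against 4.16 to 4.29 in WT, 4.22 to 4.32 in SKO and 4.17 to 5.43 in DKO. Their part in the values of Klk4 to Klk15 was not tested.

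**Figure D3:**
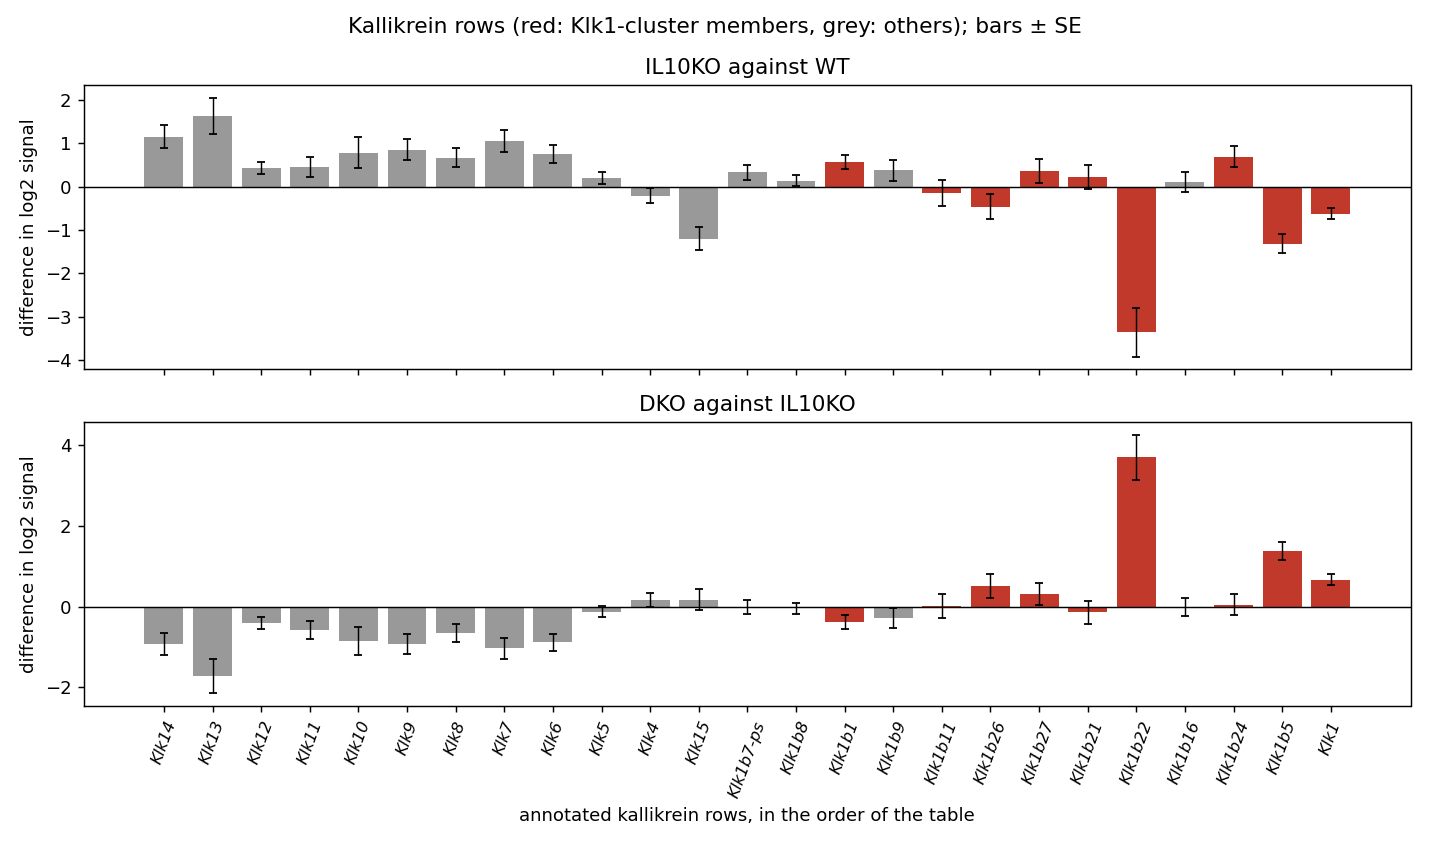
Difference in log2 signal (vertical axis, bars ± SE) for the 25 annotated kallikrein rows in table order, in IL10KO against WT and in DKO against IL10KO. Members are red. Klk1b22, Klk1b5 and Klk1 point down in the first and up in the second, while Klk13 and Klk14 point the opposite way.

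Downstream of Klk1, the kallikrein-kinin system was measured for 15 of 18 listed genes. Cpm, carboxypeptidase M, which trims the last arginine from kinins, read 9.47, 9.73 and 9.67 in WT, 9.74, 9.58 and 9.75 in SKO, 6.90, 7.72 and 6.99 in IL10KO, and 9.57, 9.22 and 9.14 in DKO. The IL10KO arrays lay more than 1 unit below all others. Cpm fell by 2.42 in IL10KO against WT (± 0.21, limma adjusted p = 0.00025) and rose by 2.11 in DKO against IL10KO (limma adjusted p = 0.00107). Both calls held in 12 of 12 single omissions. The difference of its interleukin-10 effect between STING genotypes was 2.04 ± 0.29 (limma adjusted p = 0.0331), a call kept in 3 of 12 single omissions, those of the library labelled WT replicate 3 and of IL10KO replicates 1 and 2. Without the others the adjusted p reached 0.11.

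Bdkrb1, the inducible B1 receptor, which binds kinins trimmed by such carboxypeptidases, read 4.67, 4.43 and 4.28 in WT, 4.90, 4.38 and 4.53 in SKO, 5.02, 5.95 and 5.26 in IL10KO, and 4.16, 4.26 and 4.28 in DKO. It rose by 0.95 ± 0.23 in IL10KO against WT (limma adjusted p = 0.0467) and dropped by 1.18 in DKO against IL10KO (0.0272). The first call held in 2 of 12 single omissions, those of SKO replicate 2 and IL10KO replicate 1. The second ended without any 1 of the DKO arrays. Without WT replicates 1 and 2 the differences were 1.13 (limma adjusted p = 0.318) and -1.18 (0.0641, limma). Thus 1 gene of the 15 rose and 1 fell in each of these contrasts, in which 2.97% and 2% of all rows were called, and 0 were called by limma in DKO against SKO, SKO against WT or DKO against WT, with an unadjusted p under 0.05 for 1 gene in each (4.14%, 2.02% and 2.85% of all rows). That level was reached by 5 of the 15 in IL10KO against WT (21.2% of all rows) and by 7 in DKO against IL10KO (19.6%). The medians of the list were 0.08 in IL10KO against WT and -0.15 in DKO against IL10KO.

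The remaining genes of the system did not pass in these contrasts. Bdkrb2, the constitutive B2 receptor, differed by -0.02 in IL10KO against WT (95% interval -0.33 to 0.29) and by -0.49 in DKO against IL10KO (-0.79 to -0.18, limma adjusted p = 0.105). The kininogens Kng1 and Kng2, the substrates of Klk1, differed by 0.03 and 0.12 in IL10KO against WT. Both rows were dim, with genotype means of 2.22 to 2.34 for Kng1 and 3.46 to 3.90 for Kng2. The lower quartile of the arrays was 3.45 to 3.72, so an unchanged level is not shown. Ace, angiotensin-converting enzyme, which degrades kinins, differed by -0.02. Of 5 measured genes linked to glandular kallikreins as substrates (8 listed), only Scnn1a passed in any contrast. Scnn1a, the alpha subunit of the epithelial sodium channel, fell by 0.70 in IL10KO against WT (limma adjusted p = 0.0155) and rose by 0.72 in DKO against IL10KO (0.0165). Leaving out IL10KO replicate 3, WT replicate 2 or the library labelled WT replicate 3 ended the first call, as did leaving out WT replicates 1 and 2 (-0.78, limma adjusted p = 0.216). Leaving out DKO replicate 1 or 2 ended the second. The beta and gamma subunits, Scnn1b and Scnn1g, did not pass and were higher in IL10KO. Scnn1g averaged 7.11 in WT and 8.22 in IL10KO, and Scnn1b 6.87 and 7.37. An unadjusted p under 0.05 (limma) was reached by 3 of the 5 genes in IL10KO against WT, and by 21.2% of all rows.

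Markers of several colon cell types moved with Klk1, Klk1b5 and Klk1b22. In bulk tissue, fewer cells of a type and less RNA per cell cannot be told apart. The deep crypt secretory list (Reg4, Ang4, Mptx1 and Kit) averaged 7.56 to 8.88 in IL10KO, 10.27 to 10.81 in WT, 10.25 to 10.83 in SKO and 10.32 to 10.80 in DKO. The colonocyte list (8 measured of 9) averaged 10.32 to 10.51 in IL10KO and 11.16 to 11.46 in the other genotypes. The smooth muscle list (6 of 6) averaged 10.65 to 10.81 in IL10KO and 11.31 to 11.65 elsewhere. For all 3 lists, as for Klk1, the IL10KO arrays lay below the other 9. The goblet list (11 of 11) overlapped, with 10.34 to 10.76 in IL10KO and 10.64 to 11.32 elsewhere.

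In DKO against IL10KO, 2% of all rows were called (433 of 41345 higher). There, 3 of 4 deep crypt genes were higher (1 without DKO replicate 2), as were 4 of 8 colonocyte genes (1 without any 1 DKO array). So were 3 of 6 smooth muscle genes (0 by limma without DKO replicate 1 or 2, 1 without IL10KO replicate 3). Of the goblet genes, 3 of 11 were higher (2 without any 1 DKO array and in several other omissions). Ang4, an antimicrobial ribonuclease of crypt cells, rose by 5.43 (limma adjusted p = 0.00208). Over the 12 arrays, r between Klk1 and the list mean was 0.92 for deep crypt, 0.93 for colonocyte, 0.94 for smooth muscle and 0.77 for goblet genes. For Klk1b22 the values were 0.90, 0.93, 0.97 and 0.81. All of these rest on the same 4 genotypes, and the part of these cell types in the kallikrein signal was not tested.

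The pancreas also makes tissue kallikrein. The mean of the pancreatic acinar list gave r of 0.28 with Klk1, 0.38 with Klk1b5 and 0.10 with Klk1b22. These r include the outlying WT replicates 1 and 2. The IL10KO arrays were the lowest for this list too, at 5.22 to 5.42. The list averaged 5.63 to 5.78 in DKO, 5.94 to 6.25 in SKO and 6.27 to 11.56 in WT. In IL10KO against WT, 5 of 13 acinar genes were called lower by limma (2.97% of all rows were called). That count was 2 without IL10KO replicate 3 and 10 without WT replicate 3. WT replicates 1 and 2, with list means of 8.92 and 11.56, read 12.38 and 12.79 for Klk1. They read 9.87 and 10.68 for Klk1b5 and 6.29 and 7.15 for Klk1b22. SKO replicates, with list means of 5.94 to 6.25, read 12.78 to 12.87, 10.30 to 10.43 and 8.61 to 9.07 for these rows. In DKO against IL10KO, whose means use no WT array, 1 of 13 acinar genes, Sycn, was called (2% of all rows). That count was 0 by limma without DKO replicate 1 or 2, 2 without WT replicate 2 and 3 without WT replicates 1 and 2. The part of pancreatic tissue in the kallikrein signal was not tested.

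**Figure D4:**
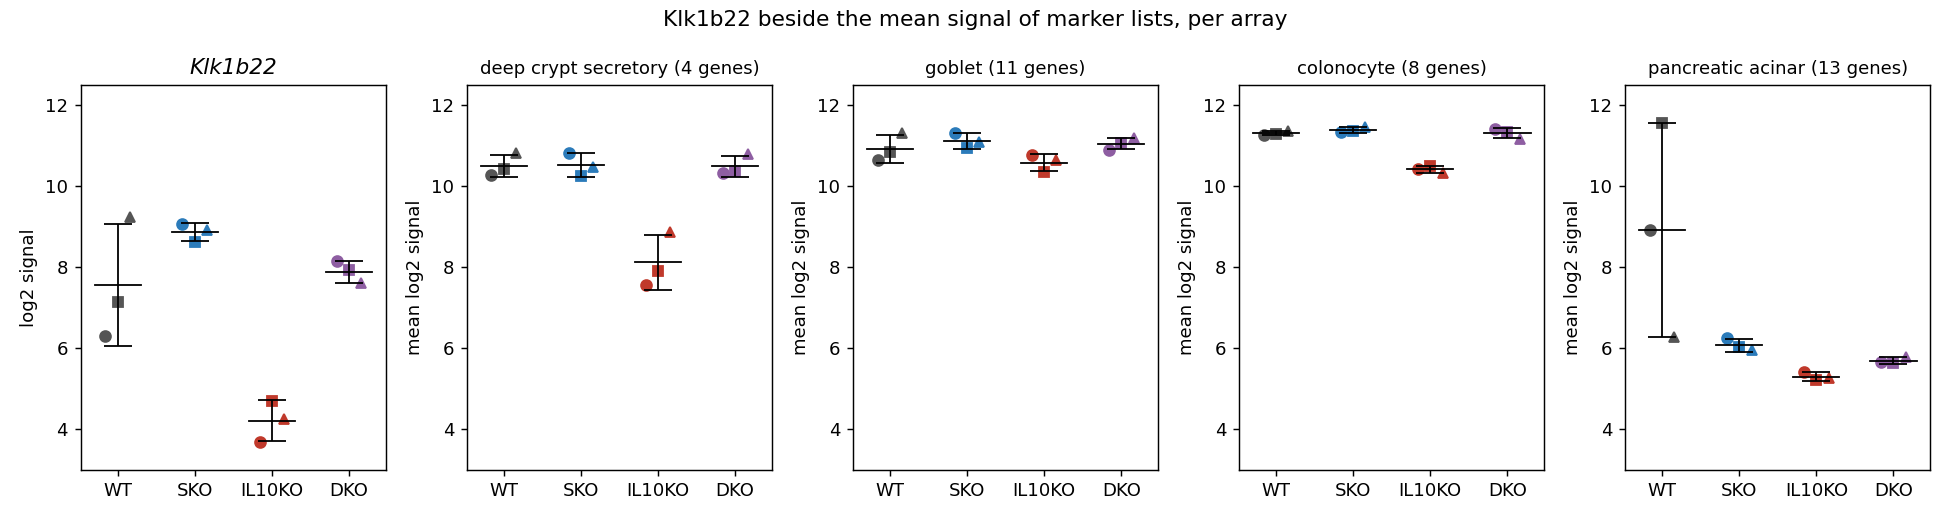
Log2 signal of Klk1b22 and mean log2 signal of the deep crypt secretory, goblet, colonocyte and pancreatic acinar lists on the 12 arrays, by genotype. Circles, squares and triangles are replicates 1, 2 and 3, and bars are the mean ± SD of 3 arrays. Klk1b22 and the means of the deep crypt, colonocyte and acinar lists are lowest in IL10KO, though not every acinar gene is. The acinar mean is high in WT replicates 1 and 2 only.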

How the data were processed

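Each of the 12 arrays measured 300 ng of total colon RNA. The authors' deposited table holds log2 signals for 41345 probe sets. Per the submitters' processing notes, the tool was Affymetrix Expression Console, version 1.3.1.187. No header states the log2 scale, which was read from the range of the values. How background was corrected and arrays normalized is not stated, and the sources used here give no genome build. Values were used as deposited.

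A single limma fit (version 3.58.1, R 4.3.3) took in every row and array, with genotype means as its terms, which leaves 8 residual degrees of freedom. A row was called at a Benjamini-Hochberg adjusted p under 0.05 over all rows, 2-sided. The steps were tested on simulated data. Genes outside the family were read from their brightest row with that single symbol.

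Named were every member row, list genes that passed a test or stand beside a result, and the 5 genes most like Klk1 and Klk1b22 by Pearson's r. Members and lists were chosen with earlier results of these data known. Klk1b9, the shared promoter run, Klk13 and Ang4 were singled out after their values were seen. Promoter windows were aligned with Biopython 1.88 without end-gap cost.

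Replicates were numbered in accession order, which pairs nothing. Alternatives tried were to centre each array on its median, to normalize by quantiles, to drop the dimmest 33.3% of rows, annotated rows only, only the genotypes compared, a trended robust prior, each array left out in turn, and WT replicates 1 and 2 left out together.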

Additional observations from a re-analysis of the deposited data

Results flagged for a closer look

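The effect of losing interleukin-10 on Cpm, the kinin-trimming carboxypeptidase M, differed between STING genotypes by 2.04 on the log2 scale (limma adjusted p = 0.0331, tested as the difference of the differences). Cpm was lower in IL10KO than in WT (-2.42), and in DKO it lay within 1 unit of SKO on all arrays. The call was kept in 3 of 12 single omissions and was lost without WT replicates 1 and 2 together (limma adjusted p = 0.412), where the library labelled WT replicate 3, whose Sting1 signal of 4.56 goes against its label, is the only WT array. The difference itself lay between 1.88 and 2.30 over 19 alternatives.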

How the results depend on the processing

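No difference of Klk1, Klk1b5 or Klk1b22 in IL10KO against WT or in DKO against IL10KO changed direction under any of 19 alternatives. The count of members called by limma in DKO against IL10KO was 3. It was 1 in the fit of only the genotypes compared, and 0 to 3 over the 12 single omissions, with 0 without DKO replicate 1. In SKO against WT it was 0, and 0 to 1 over the omissions, the 1 being Klk1b22 on omission of the library labelled WT replicate 3. The count was 0 under all 19 in DKO against SKO, DKO against WT and the difference of effects. In IL10KO against WT the difference ranged over the omissions from -0.75 to -0.55 for Klk1, from -1.54 to -1.12 for Klk1b5 and from -3.99 to -2.52 for Klk1b22, which was -5.03 without WT replicates 1 and 2. No paired analysis was possible because the labels give the groups no shared replicate numbers. With 3 arrays per genotype and no detection calls, small differences of the dim members are not detectable, and signal shared between paralogues cannot be separated.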
